A study of Mus musculus with 12 samples.

Results

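The genes that start the classical and lectin pathways of complement were followed in mouse blood monocytes and Kupffer cells by the nanostring approach, in which colour-coded reporter probes hybridised to each mRNA are counted without amplification. The 9 genes were chosen by symbol from the 248 inflammation-related genes tested: the C1q chains C1qa and C1qb, the C1 proteases C1ra and C1s, C4a, C2, the lectin Mbl2 and its proteases Masp1 and Masp2. There were 6 samples of monocytes (MNCs), sorted from blood, and 6 of Kupffer cells (KCs), the macrophages that reside in the liver, all from Balb/C mice with no treatment named in the labels. Each sample was a pool of sorted cells from 5 mice by the labels and 4 to 5 by the study's methods, with 100 ng of total RNA per reaction, and the age of the animals is not given in the labels. After density gradients, cells of both kinds were isolated on beads that bind F4/80, which marks the surface of mouse macrophages. The livers, but not the blood, were first digested with collagenases, and by the study's methods a low-speed spin then took the parenchymal cells into the pellet, which was not carried on to the gradient.

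The classical pathway starts when C1q, a bundle of collagen-like arms with globular heads, binds antibody or other ligands and activates the proteases C1r and C1s that it carries. In the lectin pathway, mannose-binding lectins take the place of C1q and the MASP proteases that of C1r and C1s. Both routes cleave C4 and then C2, whose fragments form the C3 convertase. The C1q chains are known to be made mainly by macrophages and other myeloid cells, while the liver, through its hepatocytes, is the main source of C1r, C1s, C4, C2, mannose-binding lectin and the MASPs in plasma.

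Several of these genes stand beside relatives in the genome (GRCm38.p6, used only for names and neighbours). Only C1qc, the gene of the remaining C1q chain, which was not analysed here, is a protein-coding gene between C1qa and C1qb. C1ra and C1s, now named C1s1, are direct neighbours, and a second pair of like genes, C1rb and C1s2, follows them. C4a, annotated there as a transcribed pseudogene, is separated from C4b, which encodes the main C4 protein, by 1 protein-coding gene. Which copy the probes count is not given in the sources used here, so the values of C1ra, C1s and C4a may include their relatives. C2 lies directly beside Cfb, the gene of the corresponding protease of the alternative pathway.

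The 250 bases before the start site are shown for 4 genes that represent the patterns below, C1qb being lower in Kupffer cells, C1ra slightly higher, and C1s and Mbl2 much higher. The sequences are those of RefSeq (GRCm38.p6), whose table held 5 of the 9 genes, the other being Masp2. Capitals mark any match, on either strand and within the 250 bases shown, to short motifs of transcription factors known from myeloid cells and hepatocytes: GAGGAA for PU.1, GTTAAT for HNF1, TGTTTAC for FOXA, TTNNGCAA for C/EBP, CAAAGNNCA for HNF4 and TATAAA for the TATA box. No motif overlapped another in these windows.
C1qb, minus strand, chr4:136886201-136886450: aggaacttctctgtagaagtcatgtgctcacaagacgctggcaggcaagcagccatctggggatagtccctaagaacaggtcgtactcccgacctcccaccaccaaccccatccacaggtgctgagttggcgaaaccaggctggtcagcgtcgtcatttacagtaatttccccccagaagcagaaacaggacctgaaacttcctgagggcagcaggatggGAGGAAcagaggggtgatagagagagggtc
C1ra, plus strand, chr6:124512371-124512620: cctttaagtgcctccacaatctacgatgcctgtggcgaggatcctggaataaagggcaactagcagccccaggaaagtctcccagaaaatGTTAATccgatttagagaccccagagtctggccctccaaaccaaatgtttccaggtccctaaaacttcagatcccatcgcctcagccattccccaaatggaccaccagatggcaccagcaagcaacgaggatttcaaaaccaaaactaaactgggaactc
C1s, minus strand, chr6:124542360-124542609: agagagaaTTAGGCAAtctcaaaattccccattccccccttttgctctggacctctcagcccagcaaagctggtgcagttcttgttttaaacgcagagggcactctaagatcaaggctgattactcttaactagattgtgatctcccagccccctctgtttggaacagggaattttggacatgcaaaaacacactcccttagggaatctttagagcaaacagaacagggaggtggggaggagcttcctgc
Mbl2, plus strand, chr19:30232678-30232927: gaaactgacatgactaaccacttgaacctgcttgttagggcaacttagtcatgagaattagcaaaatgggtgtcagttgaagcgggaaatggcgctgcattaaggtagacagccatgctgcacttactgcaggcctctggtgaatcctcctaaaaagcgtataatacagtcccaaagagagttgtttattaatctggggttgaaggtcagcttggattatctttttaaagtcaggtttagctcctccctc

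The window of C1qb held GAGGAA from position -30, counted from the start site, and 23.3% of the 32851 promoters of the table hold it within the same length. That of C1ra held GTTAAT from position -160, found in 6.43% of all promoters, and that of C1s a match to TTNNGCAA from position -242, found in 9.56%. The window of Mbl2 held none of the 6 motifs, and neither did that of Masp2. For C1s the table held another start site, with CAAAGNNCA from position -39 of its window, which is not printed. TGTTTAC is found in 3.17% of all promoters, CAAAGNNCA in 5.49% and TATAAA in 12.4%, and none of these 3 motifs lay wholly within the 4 sequences printed. A match is a description of letters and no evidence of binding.

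The values are normalized counts, made comparable between samples by the authors with positive control probes and housekeeping genes. A gene under the highest negative control of its sample is listed at that background, which ranged over 5 to 27 in monocyte samples and 7 to 14 in Kupffer cell samples. The counted molecules behind a sample numbered 162988 to 348248 for monocytes, housekeeping genes included, and only 84401 to 145662 for Kupffer cells. Kupffer cell samples 1 and 6 stood apart in the housekeeping gene Gapdh, at 4159 and 4084 normalized counts, while no other Kupffer cell sample exceeded 2741. Of the defining markers of the labelled cells, the panel held few: Cd163 and Mrc1, scavenger and mannose receptors of tissue macrophages, had 184 ± 94.9 and 611 ± 275 normalized counts in Kupffer cells, while monocytes had 77.8 ± 19.4 and 352 ± 47.3 (SD, n = 6 samples each), and the monocyte marker Ccr2 was not distinguishable, with 1449 ± 458 and 1553 ± 201 (adjusted p = 0.508 from limma). Cd163 and Mrc1 were called higher in Kupffer cells (adjusted p = 0.00691 and 0.0403 from limma), but both overlapped between the cell types. In Kupffer cell sample 1 Mrc1, at 286, lay below every monocyte sample, and Cd163, at 87.4, lay within the monocyte range. Itgb2, the leukocyte integrin gene also listed for monocytes, was lower in Kupffer cells (log2 fold change -1.73, adjusted p = 4.59e-07). Clec4f, Vsig4, Timd4 and Adgre1 were not analysed here. In pooled bulk RNA, fewer cells of a type and less RNA per cell cannot be told apart.

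All 9 genes differed between the cell types at an adjusted p under 0.05 from limma, fitted on log2(normalized count + 1) over the 248 genes, where 56.5% of genes were called. 6 were higher in Kupffer cells (35.1% of all genes tested) and 3 were lower (21.4%). The 3 lower genes were C1qa, C1qb and C4a. C1s, C2, Mbl2, Masp1 and Masp2 were at or near the background in monocytes and far above it in Kupffer cells, and C1ra rose by less. Monocyte and Kupffer cell samples were fully separated in 8 of the 9, against 41.5% of the 248 genes, with 5 members entirely higher in Kupffer cells (25.8% of all genes) and 3 entirely lower (15.7%). The median log2 fold change, Kupffer cells over monocytes, was 4.10 over the 9 genes and 0.05 over all genes tested. With the 5 genes that had monocyte samples at the background set to the limits given below, the median over the 9 was 4.16.

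**Figure D1:**
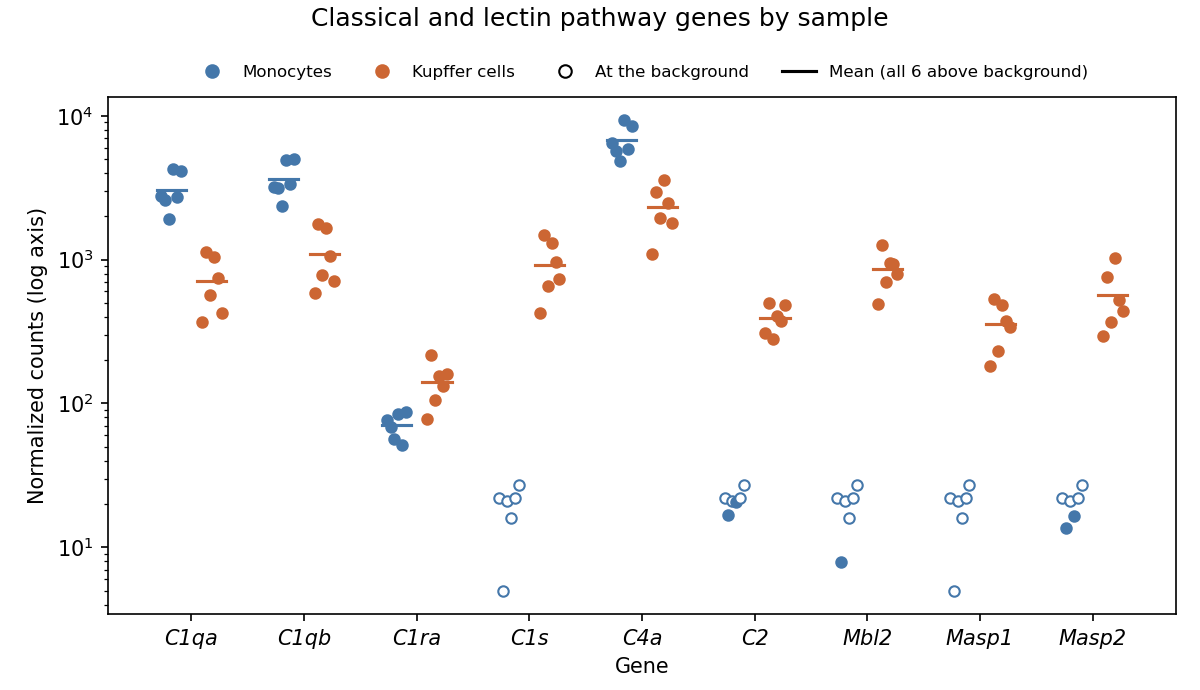
Normalized counts of the 9 genes (log axis) in each of 6 monocyte and 6 Kupffer cell samples; open circles are samples at the background, and horizontal lines are means where all 6 samples were above it. C1qa, C1qb and C4a lie higher in monocytes, C1ra overlaps, and the other 5 genes lie at or near the background in monocytes and at 181 or more in every Kupffer cell sample.

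C1qa encodes the A chain of C1q. Its normalized count ran from 1907 to 4286 in monocytes, with a median of 2740, and from 365 to 1127 in Kupffer cells, with a median of 655. The lowest monocyte sample thus stood above the highest Kupffer cell sample, and the geometric mean was 4.51-fold higher in monocytes (log2 fold change -2.17, standard error 0.30, adjusted p = 3.24e-05 from limma). C1qb, the gene of the B chain, ran from 2363 to 4964 normalized counts in monocytes (median 3280) and from 588 to 1774 in Kupffer cells (median 922). It was 3.52-fold higher in monocytes, on the log2 scale -1.82 (standard error 0.29, adjusted p = 0.000127), again without overlap. In both genes monocyte samples 4 and 6 were the highest of their group and Kupffer cell samples 1 and 6 the lowest of theirs.

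The difference was larger for C1qa than for C1qb. A ratio of counts within a sample does not depend, apart from the added 1, on the factor by which the sample was scaled, so the ratio of C1qa to C1qb was compared directly. It was 0.866, 0.830, 0.807, 0.876, 0.806 and 0.827 in monocyte samples 1 to 6 and 0.621, 0.635, 0.717, 0.633, 0.706 and 0.605 in Kupffer cell samples 1 to 6. The lowest monocyte sample lay above the highest Kupffer cell sample, and the means were 0.835 ± 0.0297 and 0.653 ± 0.0469 (SD, n = 6 samples each). The log2 ratio was lower in Kupffer cells by a difference of -0.36 (exact permutation test over all assignments of the samples, two-sided, p = 0.00216, the smallest this design allows, and 0.00289 adjusted over 4 ratios). Over alternative settings, leaving out each sample in turn among them, the difference stayed between -0.38 and -0.34. The counts behind it were 202 to 617 molecules of C1qa and 334 to 971 of C1qb per Kupffer cell sample, and at least 2317 of either in monocytes. Because each probe has its own efficiency, the ratio itself is not a ratio of transcripts, and only its difference between samples can be read.

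**Figure D2:**
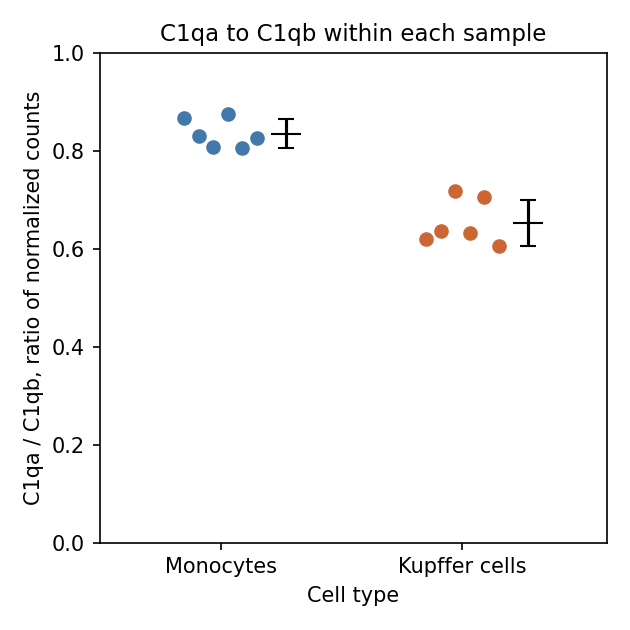
Ratio of C1qa to C1qb normalized counts (vertical axis, from 0) in the 6 monocyte and 6 Kupffer cell samples, with the mean and SD beside the points. All 6 monocyte samples lie at 0.806 or above and all 6 Kupffer cell samples at 0.717 or below.

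C1ra and C1s encode the proteases of the C1 complex: C1r activates C1s, which cleaves C4 and C2. C1ra was above the background in all 12 samples, from 51.5 to 86.9 normalized counts in monocytes (median 72.9) and from 78.3 to 216 in Kupffer cells (median 144). It was the only member in which the cell types overlapped, since Kupffer cell sample 1, at 78.3, lay within the monocyte range. The mean rose 1.92-fold (0.94 on the log2 scale, standard error 0.23, limma's adjusted p = 0.00337), and this call was lost after quantile normalization (0.48 on the log2 scale, adjusted p = 0.0961, range of adjusted p 0.000552 to 0.0961 over the alternatives). The values rest on 61 to 157 counted molecules in each monocyte sample and on 54 to 118 in each from Kupffer cells.

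C1s, in contrast, did not exceed the background in any of the 6 monocyte samples. It ran from 427 to 1482 normalized counts in Kupffer cells, with a median of 844. It was at least 49.7-fold higher in Kupffer cells, a limit that takes for each monocyte sample at the background that background as listed or scaled, whichever is higher (adjusted p = 3.66e-08 from limma). This limit and those that follow compare geometric means without the added 1 of the fit, whose own log2 fold change, 5.57 for C1s, is therefore slightly smaller. The monocyte spread behind limma's p for C1s, and for the later genes mostly at the background there, is largely that of the background. The ratio of C1s to C1ra was 6.44 ± 1.35 in Kupffer cells (SD, n = 6 samples) and could only be limited in monocytes, where the listed values gave at most 0.427. With the higher background, the log2 ratio differed by at least 4.61 between the cell types (exact permutation test, two-sided, p = 0.00289 adjusted over 4 ratios), so the neighbouring genes of a single complex did not differ by a common factor.

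C4a and C2 stand at the point where both pathways meet: C4 is cleaved first and its fragment binds C2. C4a ran from 4819 to 9323 normalized counts in monocytes (median 6164) and from 1097 to 3597 in Kupffer cells (median 2223). The groups did not overlap, and the geometric mean was 3.05-fold higher in monocytes, or -1.61 on the log2 scale (standard error 0.27, limma's adjusted p = 0.000168). C2 showed the opposite direction. In monocytes 4 of 6 samples were at the background and the other two had 16.9 and 20.7 normalized counts. It was above it throughout in Kupffer cells, from 281 to 499 (median 390), at least 17.9-fold higher (adjusted p = 2.07e-10). The ratio of C2 to C4a was 0.188 ± 0.0706 in Kupffer cells and at most 0.00436 in monocytes by the listed values, a log2 difference of at least 5.71 (exact permutation test, two-sided, p = 0.00289 adjusted over 4 ratios).

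Of the lectin pathway, Mbl2, the gene of a mannose-binding lectin, was above the background in only 1 monocyte sample, sample 2, at 7.88 normalized counts. In Kupffer cells it ran from 491 to 1257 with a median of 865, at least 45.5-fold higher (adjusted p = 1.91e-09 from limma). Masp1, whose protease activates MASP-2, never exceeded the background in monocytes and ran from 181 to 535 in Kupffer cells (median 355), at least 19.5-fold higher (adjusted p = 4.30e-07). Masp2, whose protease cleaves C4 and C2, was above the background in monocyte samples 2 and 4, at 13.5 and 16.4, and ran from 292 to 1028 in Kupffer cells (median 482), at least 26.1-fold higher (adjusted p = 9.86e-09). All 3 lectin pathway genes were separated between the cell types in every sample. Their order of fold change is not known, because most monocyte values were at the background. The ratio of Masp1 to Masp2 was 0.650 ± 0.106 in Kupffer cells. In monocytes Masp1 was at the background in every sample, so that the difference in this ratio could not be read (exact permutation test, p = 0.113).

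**Figure D3:**
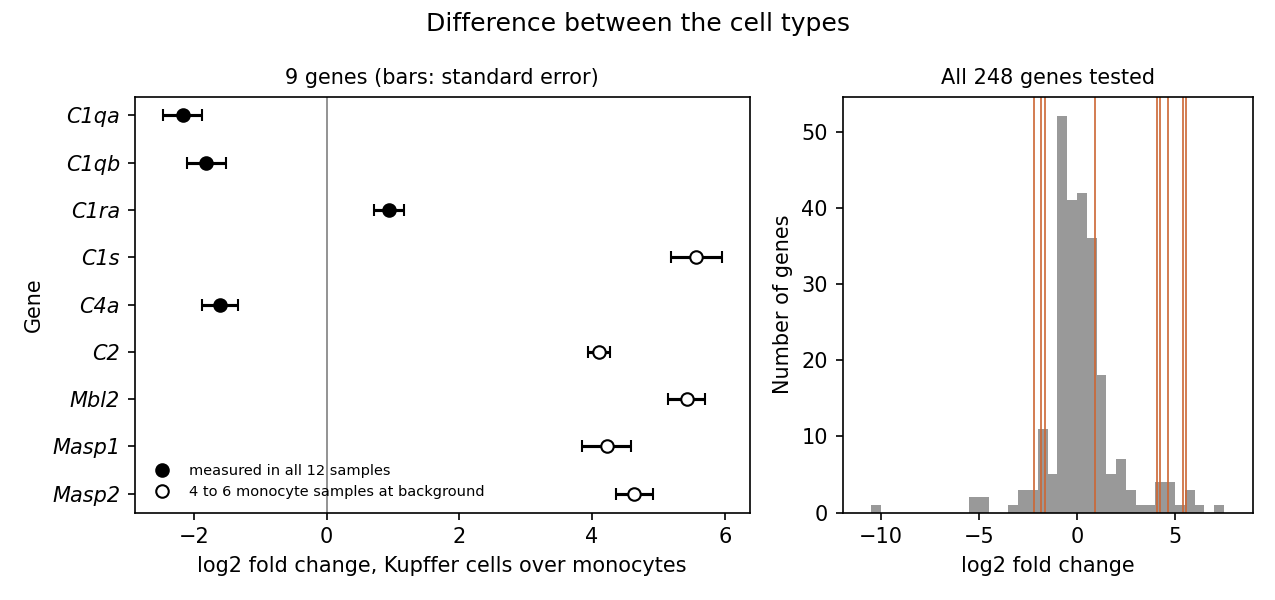
Left, log2 fold change of each of the 9 genes, Kupffer cells over monocytes, with the standard error from limma. Open circles mark genes with 4 to 6 of 6 monocyte samples at the background, where the fitted value and its standard error depend on that background. Right, number of genes at each log2 fold change over all 248 genes tested, with the 9 genes as vertical lines: 3 lie between -2.17 and -1.61, C1ra at 0.94 and 5 between 4.10 and 5.57.

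Most of the remaining complement genes of the panel were also higher in Kupffer cells. Of 11, 7 were higher (35.1% of all genes tested), 1 was lower (21.4%) and 3 were not called. Their median log2 fold change was 4.44, or 4.52 with 5 genes at the limit set by the monocyte background. C3, on which both pathways converge, stood at 19074 ± 6827 normalized counts in Kupffer cells and at only 395 ± 89.5 in monocytes, and Cfb, the neighbour of C2, at 2357 ± 609 against 822 ± 215 (SD, n = 6 samples each). The fall of C3ar1, the receptor of the C3a fragment, from 725 ± 224 in monocytes to 135 ± 30.5 in Kupffer cells was the only one among the 11 (log2 fold change -2.40, adjusted p = 5.14e-07 from limma). The later components C6, C8a, C8b, C9 and Hc all rose, by at least 23.0-fold for C6 to at least 159-fold for C8a against monocyte samples of which 5 or 6 of 6 were at the background. C7, Cfd and the regulator Cd55 were not called, with a log2 fold change of 0.38 for Cd55. No monocyte sample had C7 above the background, and no Kupffer cell sample had Cfd above it.

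Genes known for their secreted products in hepatocytes moved with the 5 genes that were at or near the background in monocytes. Of 10 such genes outside the 9, 7 were on the panel (Crp, Kng1, C6, C8a, C8b, C9 and Hc), 5 of which are complement genes already counted above. All 7 were called higher in Kupffer cells, against 35.1% of all genes tested. Their summed level was 3533 to 12803 normalized counts in Kupffer cells and 36.8 to 189 in monocytes, where 6 of the 7 were at the background in all samples. In Kupffer cells the acute-phase gene Crp reached 479 ± 138 normalized counts and Kng1, the gene of kininogen, 572 ± 217 (SD, n = 6 samples). Alb, Apoa1 and Ttr were not analysed here. The part of hepatocyte RNA in the result was not tested. The summed level of 4 T and NK cell genes, of 8 listed, was 1042 to 1508 in Kupffer cells, against 479 to 829 in monocytes, with Ifng and Cd40lg called higher, and its part was not tested either. Of 5 endothelial genes listed only Flt1, a VEGF receptor gene, was on the panel, and it was also higher in Kupffer cells, at 52.2 to 151 normalized counts against 9.01 to 27 in monocytes, where 5 of 6 samples were at the background (adjusted p = 2.22e-05 from limma). Its part was not tested.

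Between the 6 Kupffer cell samples the 9 genes rose and fell largely together. Sample 1 was the lowest in 8 of the 9 and among the lowest 2 in all 9, sample 2 was the highest in 7 and among the highest 2 in all 9, and sample 4 was among the highest 2 in 7. The median over all genes tested was also lowest in sample 1, at 140.9, and highest in samples 4 and 2, at 176.4 and 175.4. How many genes of the whole panel share this order of samples was not counted. The SD of the log2 values was 0.33 to 0.67, with a median of 0.60, against a median of 0.38 over the 184 genes above the background in all 6 samples. The highest sample exceeded the lowest by 1.78-fold in C2 and by 2.56-fold to 3.52-fold in the other 8.

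**Figure D4:**
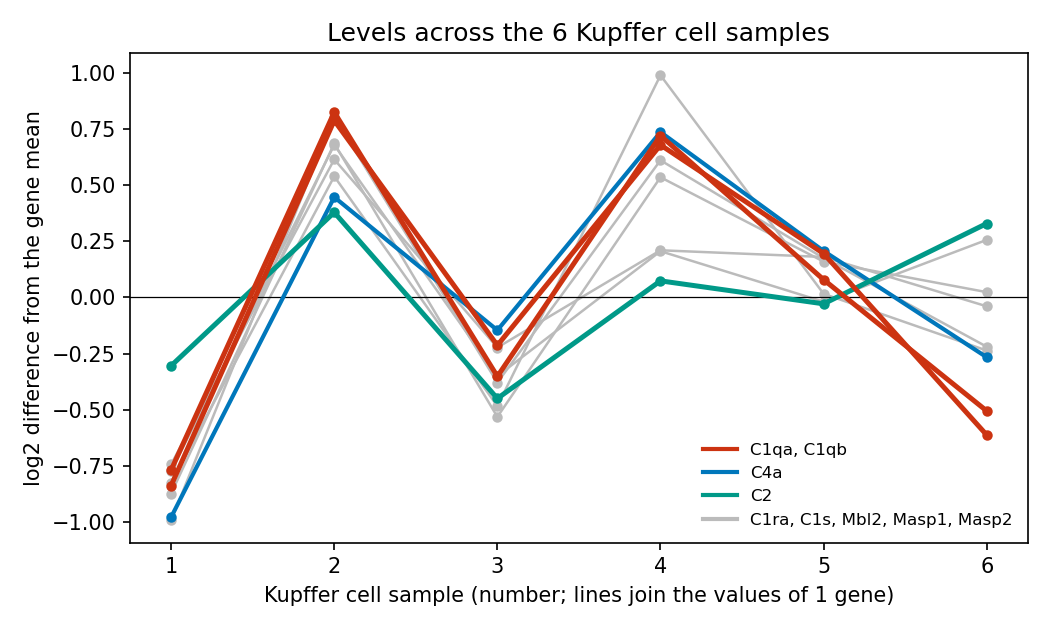
Difference of each log2 value from the mean of its gene (vertical axis) in the 6 Kupffer cell samples (horizontal axis; the numbers name samples and have no order, and lines join the values of a gene). C1qa and C1qb lie on the same side of the mean as most other genes in samples 1 to 5. In sample 6 they stand at -0.61 and -0.50, below every other gene, with C4a next at -0.27 and C2 highest at 0.33. They also stand apart from C2 in sample 4, at 0.68 and 0.72 against 0.07.

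The C1q genes, lower in Kupffer cells than in monocytes, varied between Kupffer cell samples in the same direction as the genes that were higher. C1qa and C1qb themselves were nearly proportional, with Pearson's r = 0.988 and Spearman's rho = 1 over 6 samples (exact permutation p = 0.00278 for both, the smallest possible, and 0.025 adjusted over the 36 pairs of the 9 genes), and r = 0.976 without samples 1 and 2, the farthest from the median. Of the 14 pairs of a C1q gene with another member none had r below 0, where 60.6% of all pairs of the 184 genes lay above 0, and r ran from 0.442 to 0.965 with a median of 0.896. C1qa with C1s had r = 0.953 and rho = 0.943 (exact permutation p = 0.00833 and 0.0167, adjusted 0.025 and 0.0353), and r = 0.901 without the same samples. C1qa with Mbl2 had r = 0.881 and rho = 0.943 (exact permutation p = 0.0139 and 0.0167, adjusted 0.0294 and 0.0353), which fell to r = 0.735. C1qa with C4a had r = 0.940 and rho = 0.943 (exact permutation p = 0.00556 and 0.0167, adjusted 0.025 and 0.0353), and r = 0.975 without samples 1 and 2.

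Among C1s, C2, Mbl2, Masp1 and Masp2 all 10 pairs had r above 0, from 0.600 to 0.976. C1s with Masp1 had r = 0.976 and rho = 1, and C1s with Mbl2 had r = 0.967 and rho = 1 (exact permutation p = 0.00278 and adjusted p = 0.025 for each of these values). Without samples 1 and 2 r was 0.925 and 0.917. Over all 36 pairs the median r was 0.899, and over all pairs of the 184 genes measured in these samples it was 0.205. Of the 36 pairs, 25 had an adjusted p under 0.05. The share of all pairs of the 184 genes that would pass such a test was not computed, so this count has no scale. When samples were centred on their median gene the median r of the 36 pairs was 0.837 and all 36 stayed above 0, but none had an adjusted p under 0.05, C1qa with C1qb being at 0.05. With the housekeeping genes given here other than Gapdh as the scale, 22 pairs passed. No pair of the 36 fell below 0 with any Kupffer cell sample left out, but the number of pairs that passed was 24 without sample 6, 12 without sample 3 and 0 without sample 1, 2, 4 or 5, where the smallest exact p of 5 samples is 0.0167.

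C2 was the member least like the C1q genes. Its r was 0.442 with C1qa and 0.537 with C1qb (rho = 0.543 for both, exact permutation p = 0.358 and 0.286 for r and 0.297 for rho, adjusted 0.358, 0.303 and 0.306), and with samples centred on their median gene 0.045 and 0.146. Without the 2 samples farthest from the median, r was -0.112 with C1qa and 0.132 with C1qb. Its closest partner was C1ra, with r = 0.888 and rho = 0.943 (exact permutation p = 0.0222 and 0.0167, adjusted 0.0364 and 0.0353), and r = 0.965 without samples 1 and 2. C1ra had r = 0.727 with C1qa (rho = 0.657, exact permutation p = 0.106 and 0.175, adjusted 0.123 and 0.197), and r = 0.115 without samples 1 and 2. In sample 6 C1qa was 0.61 below its mean on the log2 scale while C1ra and C2 were 0.26 and 0.33 above theirs. Without sample 6 the r of C1qa was 0.967 with C1ra and 0.843 with C2 over 5 samples. Without sample 1 it was 0.513 and 0.237, and without sample 2 it was 0.566 and 0.177. With sample 3, 4 or 5 left out it was 0.725 to 0.739 with C1ra and 0.450 to 0.458 with C2.

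**Figure D5:**
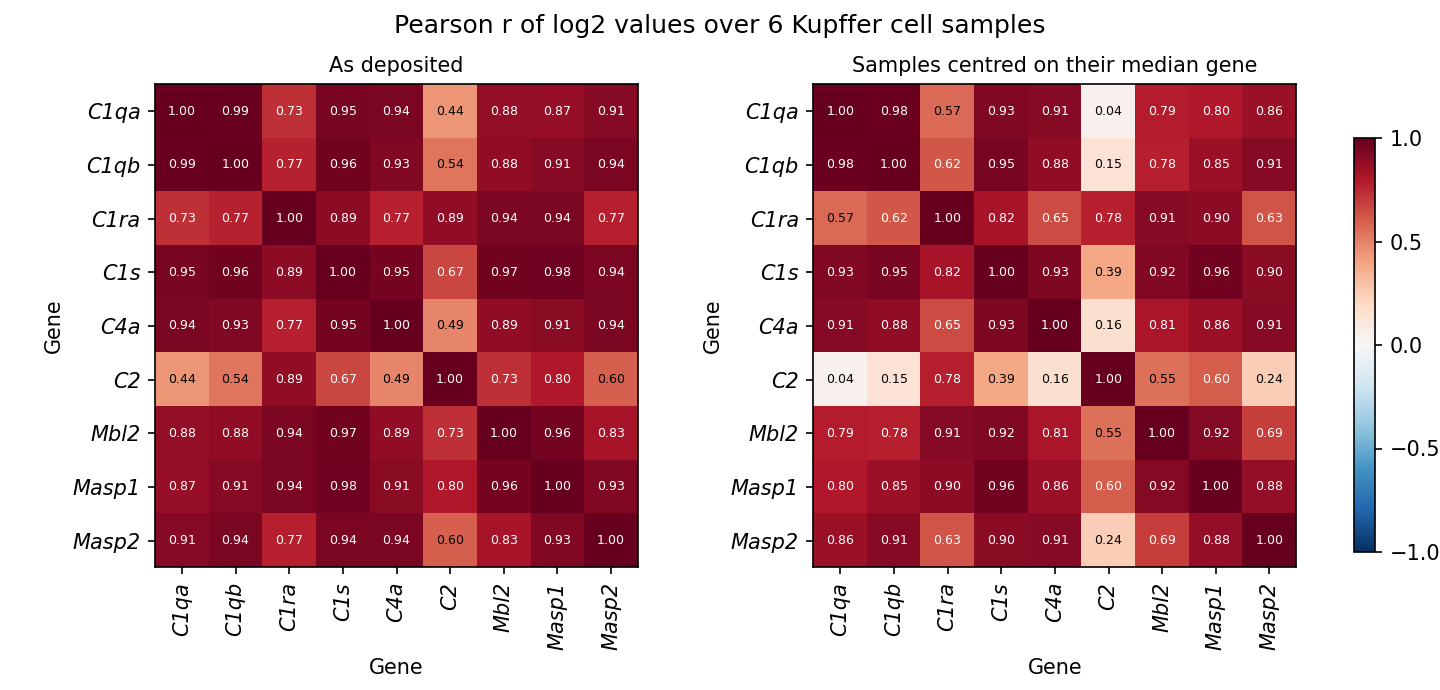
Pearson's r of log2(normalized count + 1) over the 6 Kupffer cell samples for each pair of the 9 genes, as deposited (left) and with samples centred on their median gene (right). The colour runs from -1 to 1. All pairs lie above 0 in both panels, and C2 has the lowest values with C1qa (0.442 and 0.045).

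Some macrophage and hepatocyte genes varied closely with C1qa and C1s, and other myeloid and hepatocyte genes followed C1qa less closely. Among 183 genes, the 5 whose log2 values were most like those of C1qa over the 6 Kupffer cell samples were C1qb, C6 (r = 0.975), the mannose receptor gene Mrc1 (0.974), Ly96, which encodes the partner of TLR4 (0.973), and Plcb1, a phospholipase C gene (0.971). For C1s they were Ptgs1, the gene of cyclooxygenase-1 (0.991), Mrc1 (0.987), Cfb (0.977), Masp1 (0.976) and Cd163 (0.976). Mrc1 was thus near both a gene that was lower and a gene that was higher in Kupffer cells. The hepatocyte genes Crp and Kng1 had r = 0.823 and 0.924 with C1qa and 0.951 and 0.944 with C1s. For the myeloid genes Tyrobp, C3ar1 and Itgb2 r was 0.829, 0.676 and 0.568 with C1qa and 0.696, 0.693 and 0.370 with C1s. With samples centred on their median gene these were 0.516, 0.395 and 0.174 with C1qa and 0.293, 0.425 and -0.047 with C1s. Those of Crp and Kng1 were then 0.701 and 0.881 with C1qa and 0.897 and 0.911 with C1s. After this centring Hc took the place of Ly96 among the 5 genes nearest to C1qa, and C6 that of Cfb among those nearest to C1s. Mrc1 had 286 normalized counts in Kupffer cell sample 1 and 1014 in sample 2, and the summed hepatocyte list had 3533 and 12803. These r values are descriptions over 6 samples that share their scaling, and the part of any cell type in them was not tested.

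The ratio of C1s to C1qa ran from 1.16 to 1.71 across Kupffer cell samples, highest over lowest 1.47-fold, while C1s itself varied 3.47-fold and C1qa 3.09-fold. The ratio of C2 to C1s varied 2.34-fold, more than C2 itself at 1.78-fold, from 0.311 in sample 4 to 0.728 in sample 1, where C1s was lowest. These ratios were chosen after the values were seen and were not tested.

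In monocytes only C1qa, C1qb, C1ra and C4a were above the background in all 6 samples, and they too varied in the same direction. C1qa with C4a had r = 0.985 and rho = 1 over 6 samples (exact permutation p = 0.00278 for both, 0.0167 adjusted over 6 pairs), and r = 0.945 without samples 4 and 6. C1qa with C1qb had r = 0.995 and rho = 0.886 (exact permutation p = 0.0167 and 0.0333, adjusted 0.0333 and 0.0667), and r = 0.983 without these samples. C1ra with C1qa had r = 0.785 and rho = 0.771 (exact permutation p = 0.0528 and 0.103, adjusted 0.0633 and 0.123), which dropped to 0.380 without samples 4 and 6. The ratio of C4a to C1qa was 2.05 to 2.53 in monocytes, below the 2.61 to 4.21 of Kupffer cells in every sample. It was chosen after the values were seen and was not tested.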

How the data were processed

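Per the paper's methods and the labels, the authors counted reporter molecules with the nCounter Mouse Inflammation V2 panel and normalized them in nSolver, multiplying each lane by a factor from positive controls and housekeeping genes and setting the background to the highest of 8 negative controls. The deposited values are this signal per gene and sample. Each lane's factor could be read from the file, since every gene above the background lay within 0.02 of a whole number of factors. Genes at the background hold the unscaled count, so no count model was used. The 4 housekeeping genes given and the control probes were left out of the 248 genes tested.

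Cell types were compared with limma 3.58.1 in R 4.3.3 on log2(value + 1), two-sided, with Benjamini-Hochberg adjustment over 248 genes and a threshold of 0.05; each adjusted p for a gene comes from this fit. Correlations used exact permutation over 720 pairings and ratios over all assignments of the 12 samples (scipy 1.17.1, numpy 2.4.6 and pandas 2.3.3 in Python 3.11.15). The steps were tested on simulated data. Those for limma were normally distributed values without a background, so they did not test the fit for genes at the background in most monocyte samples. The members, gene lists and named genes (the 9 members, the other complement genes, Crp, Kng1, and the 5 genes most like C1qa and C1s) were chosen with earlier results of these data known, and the motifs and Tyrobp after the values were seen. Alternatives concerned the pseudocount, low values, scaling, background, a replicate block, each sample left out and the test. Nothing says that samples came from separate days or sorts, so p-values measure only the spread between these samples. For genes at the background in most monocyte samples, the monocyte part of that spread is mostly the spread of the background.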

Additional observations from a re-analysis of the deposited data

How the results depend on the processing

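Under 20 alternatives to the comparison of the cell types, leaving out each sample in turn among them, 5 or 6 members were called higher and 3 lower in Kupffer cells, and the loss was that of C1ra after quantile normalization. With the sample number as a replicate block, 6 were called higher and 3 lower, as without it. The numbers share no known origin: over 160 genes, the deviations of samples with the same number correlated from -0.229 to 0.404, and not every sample was closest to its own number. The exact permutation test in place of limma called 6 members higher and 3 lower, at an adjusted p of 0.0138 for C1ra and 0.00521 for each of the others. The latter is the smallest value this test gives here, and any gene without overlap between the cell types receives it. The correlation of C1qa with C1qb between Kupffer cell samples was 0.983 with samples centred on their median gene, at an adjusted p of 0.05, and 0.983 to 0.994 with each Kupffer cell sample left out, where the adjusted p reached 0.12 without sample 1, 0.0667 without sample 2, 0.06 without sample 4 and 0.106 without sample 5; the smallest exact p of 5 samples is 0.0167 before adjustment over 36 pairs. Over all 6 samples, or with any 1 left out, none of the alternatives gave a C1q gene a correlation below 0 with another member. Without the 2 samples farthest from the median, however, C1qa with C2 was at -0.112 as deposited and at -0.193 without Gapdh in the scaling, where C1qa with C1ra was at -0.022. After centring, C1qb was at -0.300 with C2 and -0.167 with C1ra without samples 1 and 2. There C1qa was at 0.825 with C2 and 0.860 with C1ra, without samples 1 and 6, so the result depended on which samples were left out. In the same alternatives all 10 pairs of C1s, C2, Mbl2, Masp1 and Masp2 stayed above 0. The log2 ratio of Masp1 to Masp2 differed by -0.51 with a pseudocount of 10 (adjusted p = 0.00866) and by -0.63 to -0.33 with each sample left out, passing the threshold without monocyte sample 2 (adjusted p = 0.00216), but compares background values in monocytes. With sign flips within same-numbered samples as a replicate block, the log2 ratio of C1qa to C1qb kept its difference of -0.36 (exact permutation, adjusted p = 0.0417, from the smallest p this test allows). Low values limit C1ra, with as few as 54 counted molecules, and the monocyte values of C1s, C2, Mbl2, Masp1 and Masp2.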
